A study of Mus musculus with 6 samples.

Results

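The interferon-stimulated effector genes are the antiviral and ubiquitin-like genes that cells switch on in response to interferons. The set described here was chosen by symbol, leaving out the OAS and GBP families, the nucleic acid sensors and the STATs. All 41 members had a row among the 57010 gene identifiers of the deposited count table, and 40 had enough counts to be tested. RNA of CT26 cells, a colon carcinoma line of the BALB/c mouse, was sequenced in cells that carried a guide against Cdk10 (sgCdk10, 3 libraries) or a control guide (sgControl, 3 libraries). Cdk10 encodes cyclin-dependent kinase 10. The title of the study links this kinase to the sensing of nucleic acids by tumor cells, and the comparison asks whether the downstream genes of that response differed in cells with the Cdk10 guide. The labels name a cell line and no host tissue, give no interferon or other agent, and do not say whether a guide line was a pool or a single clone.

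Type I interferon binds a receptor made of IFNAR1 and IFNAR2. The kinases JAK1 and TYK2 then activate the transcription factor complex ISGF3, which binds the interferon-stimulated response element, or ISRE, in the promoters of effector genes. The effectors act at many steps of a viral life cycle, from entry through RNA translation to budding, and many cell lines express part of the set without added interferon.

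The ISRE core was searched in promoter windows of RefSeq (GRCm38.p6) that ran from 250 bases before to 50 after a gene's start. The letters were GAAA, any bases NN and again GAAA, on either strand, so that an element on the opposite strand reads TTTC, NN, TTTC, and overlapping matches were counted separately. Windows were found for 34 members, and 13 of them (38.2%) held the letters, against 3.99% of 27025 genes in the same table. A gene could have several windows (42 for the 34 members, 32851 for all genes), and a match in any of them counted. The matches of Trim21, Trim34a, Ifitm3 and Shisa5 lay after the start site, that of Shisa5 at a start inside the gene. The 80-base stretches below lie wholly before the start site and are shown because they carry the letters of the ISRE core. Capitals mark the ISRE letters.
Isg15: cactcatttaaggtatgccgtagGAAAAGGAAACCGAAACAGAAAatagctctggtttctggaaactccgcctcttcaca
Bst2: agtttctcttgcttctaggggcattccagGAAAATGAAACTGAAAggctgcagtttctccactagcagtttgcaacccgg
Ifit1: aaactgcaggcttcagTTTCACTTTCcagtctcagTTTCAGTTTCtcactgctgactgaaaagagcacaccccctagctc
Ifit3: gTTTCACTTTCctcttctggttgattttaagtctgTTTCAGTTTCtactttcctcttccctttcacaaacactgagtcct
Ifit3b: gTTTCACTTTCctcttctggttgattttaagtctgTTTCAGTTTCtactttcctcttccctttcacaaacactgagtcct
Rsad2: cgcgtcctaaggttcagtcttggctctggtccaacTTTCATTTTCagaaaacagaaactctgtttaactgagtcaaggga
Ddx60: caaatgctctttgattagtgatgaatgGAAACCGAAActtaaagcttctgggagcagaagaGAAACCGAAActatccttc
The Isg15 stretch is chr4:156200840-156200919 on the minus strand and holds 3 overlapping matches. The Bst2 stretch, chr8:71537552-71537631 on the minus strand, holds 2 overlapping matches. On the plus strand of chromosome 19 lie Ifit1 (chr19:34640769-34640848), Ifit3 (chr19:34583372-34583451) and Ifit3b (chr19:34607768-34607847). The stretches of Ifit3 and Ifit3b were identical at 80 of 80 bases. Rsad2 is shown at chr12:26456528-26456607, minus strand, and Ddx60 at chr8:61928007-61928086, plus strand. A second set of letters, TTCNNNGAA, is the core of a STAT site and is the same on both strands. It occurred in windows of 5 of the 34 members (14.7%), against 9.55% of all genes in the table. A match in letters does not show that a factor was bound.

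Libraries held 17532202 to 19258309 counts. Replicates were labelled as separate samples, but no label says that each was its own culture. The p-values therefore cover the spread among the libraries only, which may be technical. The sgControl replicate 3 stood apart from the other 5 libraries on the second principal component (16.5% of the variance), and mitochondrial genes held 4.93% of its counts against 4.19 to 4.40% elsewhere. Cdk10 itself had 204, 227 and 202 counts in sgCdk10, against 381, 344 and 365 in sgControl, and it fell by 0.82 on the log2 scale (SE 0.08; adjusted p by edgeR = 8.4e-09). Of 11 epithelial and colon markers 3 had enough counts to be tested: Krt18 and Krt20 rose (log2 fold changes 0.65 and 0.51) and Muc2, with 7 to 16 counts per library, fell (-0.93), a call lost in 7 alternatives, DESeq2 among them. The defining epithelial markers Epcam, with 0 counts in all 6 libraries, and Cdh1, with at most 1, were near absent. The 11 markers summed to 58.1 to 59.4 CPM (counts scaled to the TMM-adjusted library total) in sgCdk10 and 37.0 to 40.8 CPM in sgControl. Of 19 leukocyte markers 8 had 0 counts in all 6 libraries, and Ptprc, the common leukocyte antigen, had 0 counts in sgCdk10 and 2, 0 and 1 in sgControl. The summed level of the 19 markers was 56.7 to 59.4 CPM in sgCdk10 and 50.2 to 56.8 CPM in sgControl. Most of this was Cd14, at 43.8 CPM in sgCdk10 and 43.7 CPM in sgControl, and Cd68, which rose by 0.57 on the log2 scale and had 13.0 CPM in sgCdk10 and 8.75 CPM in sgControl. The 10 fibroblast and endothelial markers, of which Pdgfra, Pdgfrb, Col1a1 and Vwf were tested, summed to 146 to 151 CPM in sgCdk10 and 117 to 134 CPM in sgControl. Of these 4, Pdgfra and Col1a1 rose, and Lum and Cdh5, which mark fibroblasts and endothelium, had no more than 1 count in any library. The part of these markers in the results was not tested.

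Effector genes were higher in sgCdk10 by small amounts. Of the 40 tested members 28 rose, 1 fell and 11 were not called. The test was the quasi-likelihood F-test of edgeR, with p-values adjusted over all 13442 tested genes by the Benjamini-Hochberg method and a threshold of 0.05. Over all tested genes 42.5% were called, 22.1% as higher and 20.4% as lower. In RNA of whole cultures, a change in the share of cells that express a gene and a change in its RNA per cell cannot be told apart. The median fold change of the tested members was 1.19, a log2 fold change of 0.26, against a median of -0.0031 on the log2 scale over all tested genes. The log2 fold change was above 0 in 37 of the 40, against 49.4% of all tested genes. In 28 members every sgCdk10 library lay above every sgControl library, a pattern found in 26.6% of tested genes, and in 1 member every one lay below, found in 24.8%. The largest fold among the 40 tested members was 1.70, and 5 members rose by at least 1.5-fold, which 3.53% of tested genes did. DESeq2 called 24 members higher, where it called 16.3% of all tested genes higher. Without sgControl replicate 3 the count of members called higher was 27.

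**Figure D1:**
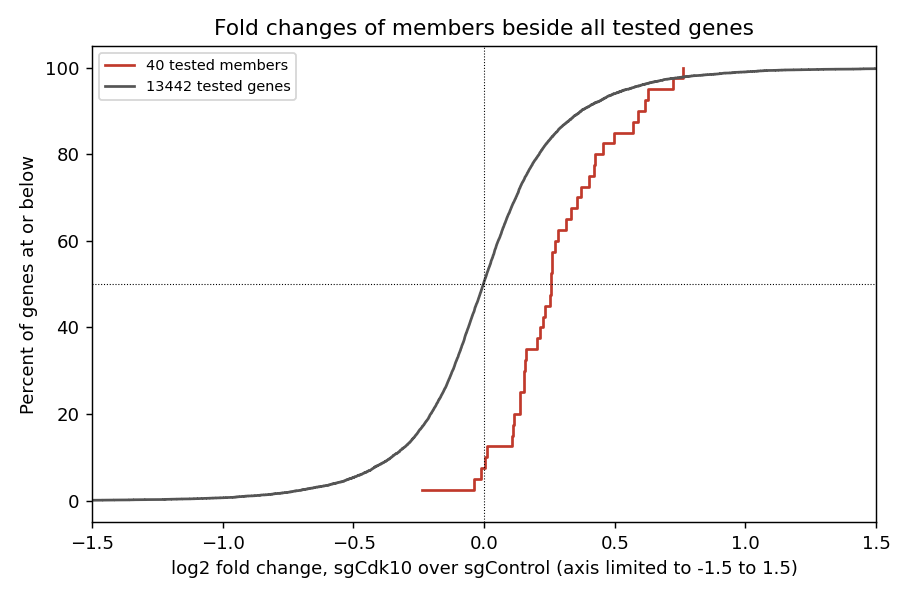
Cumulative percent of genes (vertical axis) at or below each log2 fold change of sgCdk10 over sgControl (horizontal axis), for the 40 tested members and for all 13442 tested genes. The member curve crosses 50 percent at 0.26 and the curve of all genes near 0, and the member curve ends at 0.76 while that of all genes runs on to larger changes.

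Summed over the 41 members, the level was 2271, 2243 and 2280.2 CPM in the sgCdk10 libraries, against 1874, 1881 and 1882.5 CPM in the sgControl libraries. The groups did not overlap in this sum, in which abundant members weigh most. They also did not overlap in the epithelial or the fibroblast and endothelial marker sums above, but did in the leukocyte sum. Per length, Ifitm3 was the most abundant member, at 1251 ± 22.2 TPM in sgCdk10 and 1017 ± 37.5 TPM in sgControl (TPM, a level corrected for merged exon length; SD, n = 3). Bst2 followed at 581 ± 9.80 TPM in sgCdk10 and 381 ± 49.6 TPM in sgControl. At the other end 13 members lay under 10 TPM in both groups. Ifi44l, a relative of Ifi44, had 8, 3 and 11 counts in sgCdk10 and 2, 5 and 3 in sgControl, too few to pass the filter, and its groups overlapped.

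**Figure D2:**
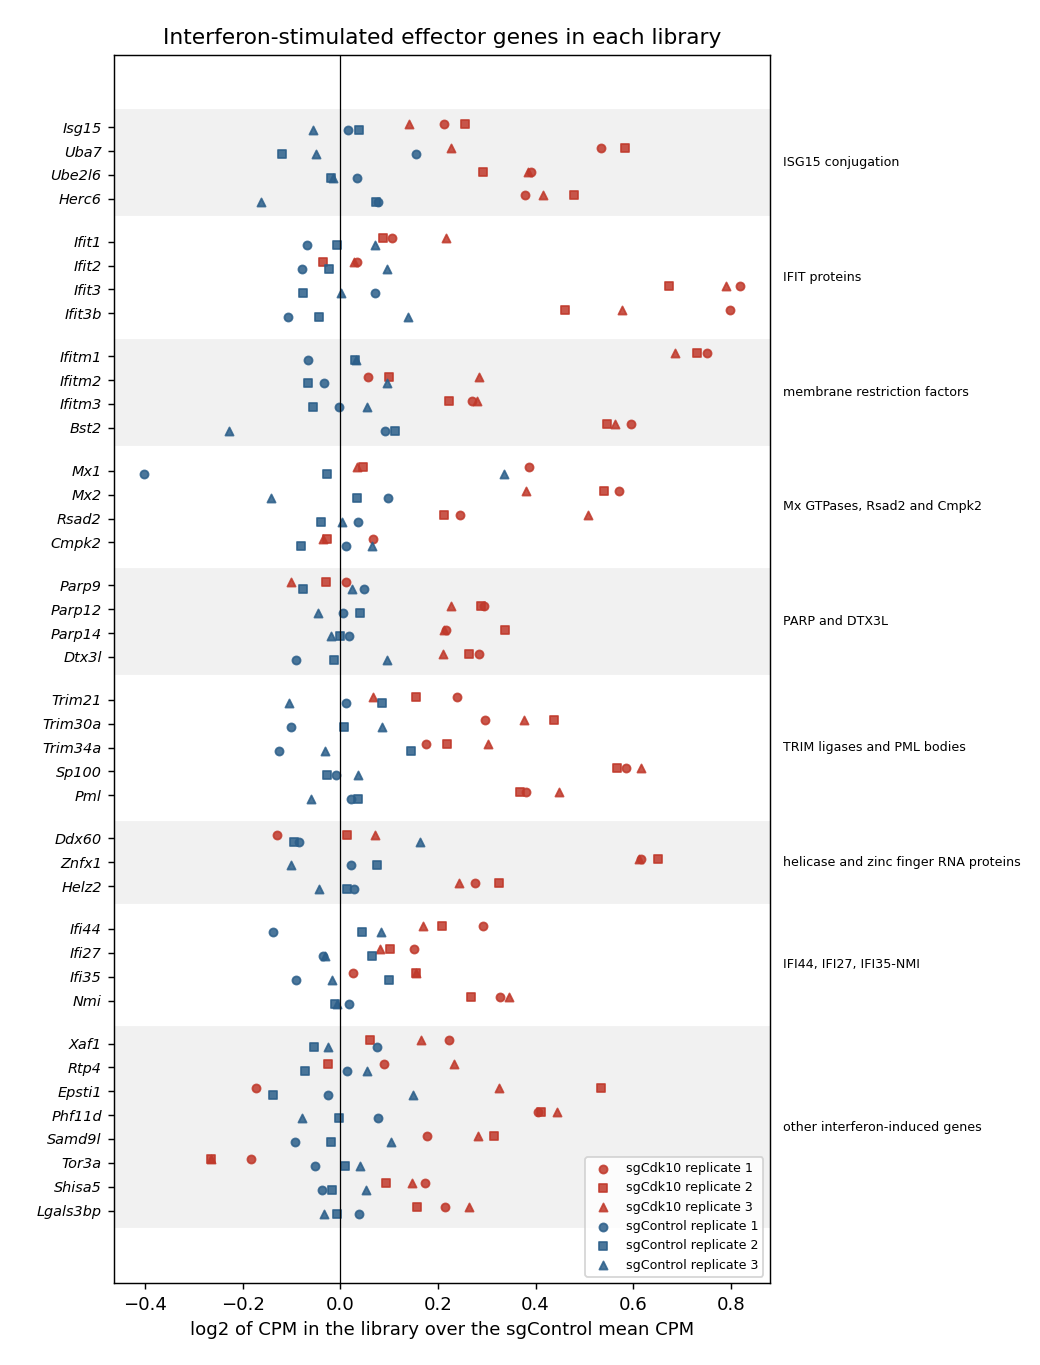
Level of each of the 40 tested members in each library, as the log2 of its CPM over the mean CPM of the 3 sgControl libraries, with members grouped by role down the page. Red symbols are sgCdk10 and blue symbols sgControl, with 1 shape per replicate number. In 28 members all red symbols lie right of all blue symbols, and in Tor3a they all lie left.

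ISG15 is a ubiquitin-like protein that is joined to other proteins by the activating enzyme UBA7, the conjugating enzyme UBE2L6 and, in the mouse, the ligase HERC6. All 4 of these genes rose, with log2 fold changes from 0.20 to 0.45. Isg15 (ENSMUSG00000035692, chr4:156199424-156200818, minus strand) had 780, 779 and 789 counts in sgCdk10, against 665, 675 and 648 in sgControl. It had the smallest change of the 4, 0.20 (SE 0.05; adjusted p by edgeR = 0.00174). Ube2l6 had 1402, 1270 and 1483 counts in sgCdk10, against 1071, 1030 and 1059 in sgControl, and rose by 0.36 (SE 0.04; adjusted p by edgeR = 1.66e-07). Herc6 had 276, 287 and 301 counts in sgCdk10, against 219, 218 and 190 in sgControl. Its rise was 0.43 (SE 0.08; adjusted p by edgeR = 0.000136). Uba7 had 214, 215 and 184 counts in sgCdk10, against 161, 133 and 143 in sgControl, and rose by 0.45 (SE 0.10), the largest change of the 4. For each of these 4 genes the lowest sgCdk10 library was above the highest sgControl library in CPM. Usp18, which removes ISG15 from proteins and restrains the receptor, had 33.5 CPM in sgCdk10 and 31.8 CPM in sgControl, a log2 fold change of 0.08 that was not called (adjusted p by edgeR = 0.24). The Usp18 groups did not overlap either, with every sgCdk10 library above every sgControl library in CPM.

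Among the IFIT proteins, IFIT1 binds RNA that lacks the marks of host mRNA and holds back its translation. The IFIT genes lie side by side on chromosome 19, and 3 of 4 rose. Ifit3 (ENSMUSG00000074896, chr19:34583531-34588731, plus strand) had 139, 122 and 145 counts in sgCdk10, against 81, 73 and 79 in sgControl. This was the largest rise of any member, 0.76 on the log2 scale (SE 0.12; adjusted p by edgeR = 1.2e-05). Ifit3b had 90, 69 and 82 counts in sgCdk10 and 47, 49 and 57 in sgControl, a rise of 0.62 (SE 0.16; adjusted p by edgeR = 0.00227). Ifit3 and Ifit3b are close paralogs, and their reads may be divided between them. Ifit1 had 729, 698 and 836 counts in sgCdk10, against 632, 658 and 712 in sgControl. Its rise of 0.14 (SE 0.05; adjusted p by edgeR = 0.0343) did not overlap in CPM but was not called by DESeq2 (adjusted p = 0.154), nor without sgCdk10 replicate 3 or without sgControl replicate 1 or 2 (adjusted p by edgeR from 0.0736 to 0.19). Ifit2 had 634, 586 and 671 counts in sgCdk10, against 574, 595 and 662 in sgControl. The Ifit2 groups overlapped, with a log2 fold change of 0.01 (SE 0.05; adjusted p by edgeR = 0.906) that was below 0 without sgCdk10 replicate 1, sgControl replicate 1 or sgControl replicate 2.

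Among factors that act at membranes, 3 of 4 rose. IFITM proteins block the fusion of virus and cell membranes, and BST2, also called tetherin, holds budding virus at the cell surface. Ifitm1 (ENSMUSG00000025491, chr7:140967221-140969825, plus strand) had 779, 745 and 792 counts in sgCdk10, against 433, 462 and 474 in sgControl. It rose by 0.72 (SE 0.05; adjusted p by edgeR = 5.1e-11), the second largest change among the members. Ifitm3 had 4739, 4453 and 5077 counts in sgCdk10, against 3842, 3696 and 4088 in sgControl. Its change was 0.26 (SE 0.03; adjusted p by edgeR = 3.5e-07). Bst2 had 2963, 2776 and 3079 counts in sgCdk10, against 2043, 2069 and 1675 in sgControl, and rose by 0.57 (SE 0.10; adjusted p by edgeR = 0.00975). The lowest Bst2 library was sgControl replicate 3, and without it the log2 fold change was 0.46. Ifitm2 had 1155, 1154 and 1437 counts in sgCdk10, against 1061, 1035 and 1187 in sgControl, with sgCdk10 replicate 3 well above the other sgCdk10 libraries. Its log2 fold change of 0.15 was not called, and the groups overlapped (SE 0.06; adjusted p by edgeR = 0.0528). It was called without a filter, with non-robust dispersions, under the replicate block (adjusted p = 0.00722), with the GC and length correction and without sgCdk10 replicate 1 or sgControl replicate 3.

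MX proteins are dynamin-like GTPases that trap viral components. BALB/c mice are among the inbred strains known for a defective Mx1 gene. Mx2 had 159, 151 and 148 counts in sgCdk10, against 112, 107 and 97 in sgControl, and rose by 0.50 (SE 0.11; adjusted p by edgeR = 0.000704). The annotation used here classes Mx2 as a polymorphic pseudogene. Mx1 had 30, 23 and 25 counts in sgCdk10 and 17, 22 and 29 in sgControl. Its groups overlapped, its log2 fold change of 0.16 (SE 0.25; adjusted p by edgeR = 0.638) was not called, and at 17 to 30 counts per library a change of the size seen in Mx2 was not distinguishable from none. Rsad2, also called viperin, makes a nucleotide that halts viral RNA synthesis. It had 156, 148 and 199 counts in sgCdk10, against 132, 125 and 132 in sgControl. Its rise of 0.33 (SE 0.10; adjusted p by edgeR = 0.012) was not called by DESeq2 (adjusted p = 0.0895) or without sgCdk10 replicate 3, the highest library, where it was 0.23 (adjusted p by edgeR = 0.11). Its neighbour Cmpk2, a mitochondrial nucleotide kinase, had 221, 201 and 219 counts in sgCdk10 and 208, 195 and 221 in sgControl, a log2 fold change of 0.00 (SE 0.08) whose sign changed between settings.

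PARP9, PARP12 and PARP14 belong to the ADP-ribosyltransferase family, and DTX3L is a ubiquitin ligase that works as a partner of PARP9. Parp12, Parp14 and Dtx3l rose by like amounts, 0.27, 0.26 and 0.25 on the log2 scale. Parp12 had 1138, 1098 and 1154 counts in sgCdk10, against 911, 931 and 899 in sgControl (SE 0.04; adjusted p by edgeR = 1.94e-05). Dtx3l had 596, 570 and 602 counts in sgCdk10, against 450, 474 and 524 in sgControl (SE 0.06; adjusted p by edgeR = 0.000923). For both genes, and for Parp14, the groups did not overlap. Parp14 had 481, 507 and 510 counts in sgCdk10, against 410, 404 and 409 in sgControl (SE 0.06; adjusted p by edgeR = 0.000939). Parp9, which starts beside Dtx3l on the opposite strand, had 732, 690 and 720 counts in sgCdk10 and 735, 673 and 739 in sgControl. It had a log2 fold change of -0.04 (SE 0.05; adjusted p by edgeR = 0.559) with overlapping groups. Exons of Parp9 and Dtx3l overlap, and the strand setting of the counting is not given, so reads of the shared stretch cannot be assigned with certainty.

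PML and SP100 build the nuclear bodies that silence incoming viral genomes, and TRIM proteins are ubiquitin ligases. Here 3 of 5 genes rose. Sp100 (ENSMUSG00000026222, chr1:85649988-85709998, plus strand) had 929, 889 and 1009 counts in sgCdk10, against 602, 593 and 635 in sgControl, a rise of 0.59 (SE 0.05; adjusted p by edgeR = 2.5e-10). Pml had 2369, 2277 and 2640 counts in sgCdk10, against 1807, 1823 and 1747 in sgControl, a rise of 0.40 (SE 0.04; adjusted p by edgeR = 2.0e-09). Both nuclear body genes were higher in every sgCdk10 library than in any sgControl library. Trim30a, a restrainer of NF-kB signalling in the mouse, had 908, 972 and 1021 counts in sgCdk10, against 675, 726 and 786 in sgControl, and rose by 0.37 (SE 0.05). Trim34a had a log2 fold change of 0.23 and Trim21, an antibody receptor of the cytosol, of 0.16. Neither was called (adjusted p by edgeR of 0.22 and 0.168), although the Trim34a groups did not overlap.

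Of the 3 genes of helicase and zinc finger RNA proteins, 2 rose. Znfx1 (ENSMUSG00000039501, chr2:167035793-167063015, minus strand), the gene of a helicase that binds viral RNA, had 1311, 1302 and 1390 counts in sgCdk10, against 849, 880 and 798 in sgControl. It rose by 0.63 (SE 0.05; adjusted p by edgeR = 6.4e-11), the third largest change among the members. Its exons overlap those of Zfas1 on the opposite strand, a noncoding RNA that had 1221, 1129 and 1266 counts in sgCdk10 and 1201, 1234 and 1157 in sgControl and was not called (adjusted p by edgeR = 0.628). Helz2, a helicase that works as a nuclear receptor coactivator, had 3289, 3301 and 3416 counts in sgCdk10, against 2709, 2677 and 2638 in sgControl. Its rise of 0.28 (SE 0.03; adjusted p by edgeR = 1.5e-07) was 0.14 with the correction for GC content and transcript length. Ddx60, a helicase that aids RIG-I, had 212, 227 and 259 counts in sgCdk10 and 214, 212 and 260 in sgControl. The Ddx60 groups overlapped and its log2 fold change of -0.01 (SE 0.09; adjusted p by edgeR = 0.925) was above 0 without sgCdk10 replicate 1 or sgControl replicate 3.

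**Figure D3:**
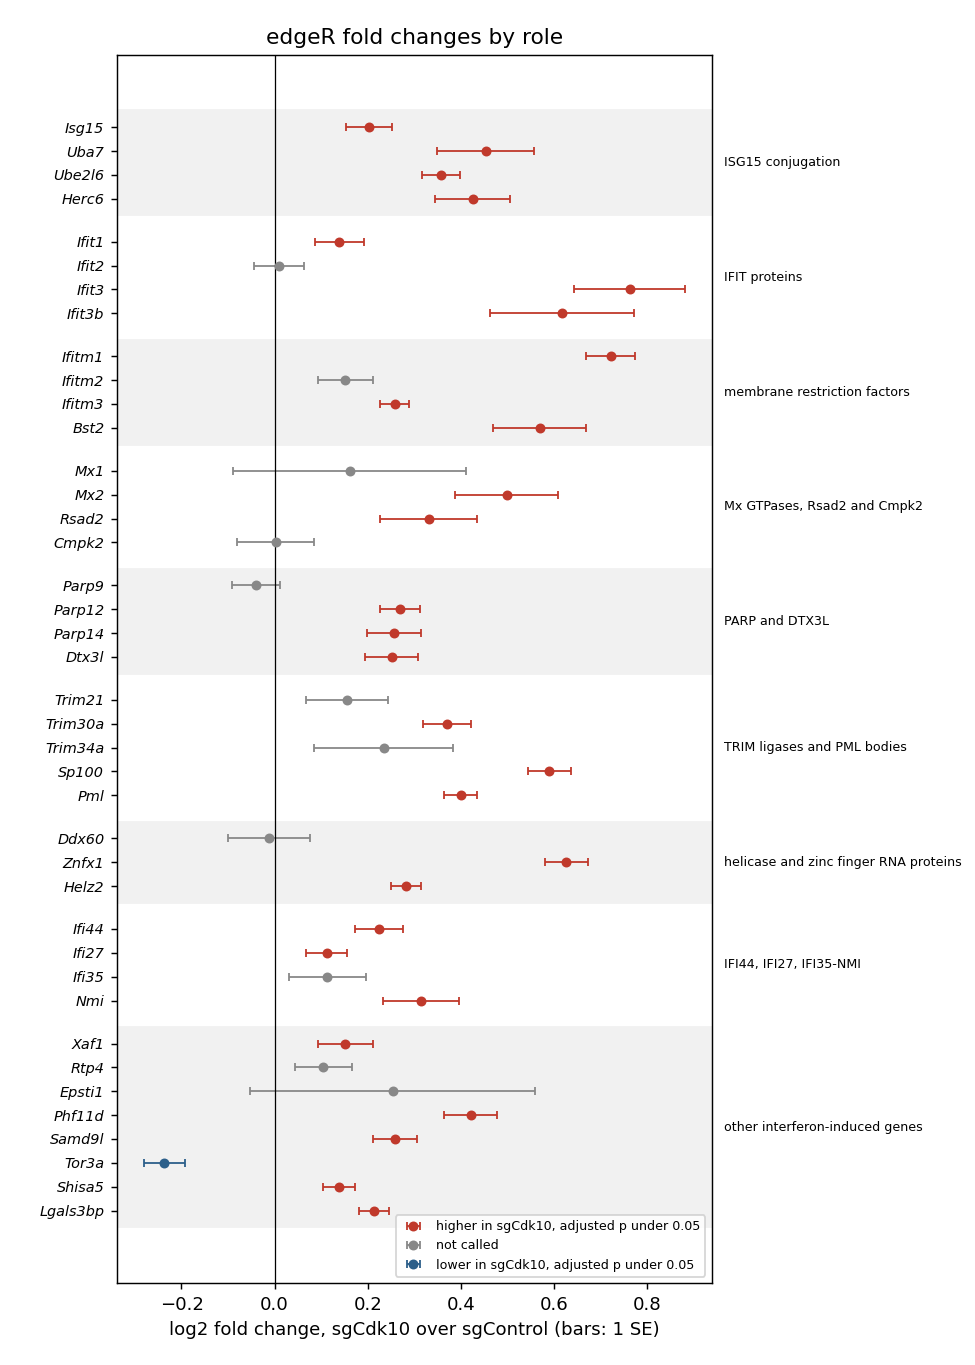
Log2 fold change of sgCdk10 over sgControl with 1 SE (horizontal axis) for the 40 tested members, grouped by role down the page. Red points are the 28 called higher, grey points the 11 not called and the blue point, Tor3a, the 1 called lower; within most roles called and uncalled genes stand side by side.

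Of the 4 tested genes of the IFI44 and IFI27 families and the IFI35 and NMI pair, 3 rose, with log2 fold changes of at most 0.31. Ifi44 had 1440, 1317 and 1405 counts in sgCdk10, against 1045, 1184 and 1246 in sgControl, a rise of 0.22 (SE 0.05; adjusted p by edgeR = 0.00162). NMI and IFI35 are partner proteins that can be released from cells. Nmi had 233, 217 and 251 counts in sgCdk10, against 184, 180 and 185 in sgControl, and rose by 0.31 (SE 0.08; adjusted p by edgeR = 0.00276). Ifi35 had 216, 229 and 251 counts in sgCdk10 and 195, 222 and 210 in sgControl. Its log2 fold change was 0.11 with overlapping groups and was not called (adjusted p by edgeR = 0.291). Ifi27 had 1143, 1071 and 1158 counts in sgCdk10, against 982, 1052 and 1008 in sgControl. Its rise of 0.11 (SE 0.04; adjusted p by edgeR = 0.0427) was not called in 8 of 14 alternatives, among them DESeq2 (adjusted p = 0.165), the replicate block (adjusted p = 0.0518) and leaving out any sgCdk10 library or sgControl replicate 1 or 3.

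Among the 8 other members 5 rose, 1 fell and 2 were not called. Phf11d had 539, 525 and 589 counts in sgCdk10, against 420, 397 and 386 in sgControl, and rose by 0.42 (SE 0.06; adjusted p by edgeR = 2.1e-06). Lgals3bp, a secreted glycoprotein that binds galectin-3, had 3963, 3691 and 4355 counts in sgCdk10, against 3431, 3320 and 3340 in sgControl. It rose by 0.21 (SE 0.03; adjusted p by edgeR = 8.8e-06). Samd9l, a restrainer of protein synthesis, had 2058, 2196 and 2354 counts in sgCdk10, against 1669, 1756 and 1960 in sgControl, and rose by 0.26 (SE 0.05). Shisa5, a protein of the endoplasmic reticulum, had 2593, 2379 and 2707 counts in sgCdk10, against 2191, 2219 and 2386 in sgControl, and rose by 0.14 (SE 0.03). In CPM the groups of both genes did not overlap. Xaf1, an antagonist of the apoptosis inhibitor XIAP, had 575, 499 and 588 counts in sgCdk10, against 508, 464 and 485 in sgControl, with overlap between the groups in CPM. Its rise of 0.15 (SE 0.06; adjusted p by edgeR = 0.0381) was not called by DESeq2 (adjusted p = 0.175), by limma-voom (adjusted p = 0.0505) or without sgCdk10 replicate 1 or 3 or sgControl replicate 2 or 3 (adjusted p by edgeR from 0.0605 to 0.198). Rtp4, a chaperone of receptors, had 602, 540 and 707 counts in sgCdk10 and 559, 526 and 589 in sgControl. The Rtp4 groups overlapped, and its log2 fold change of 0.10 (SE 0.06; adjusted p by edgeR = 0.178) was not called, but with the correction for GC content and length it was 0.15 and called (adjusted p by edgeR = 0.0392). Epsti1 (0.25; adjusted p by edgeR = 0.536), with 12 to 19 counts per library, was not called.

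Tor3a, the gene of a torsin ATPase of the endoplasmic reticulum, was the only member called lower. It (ENSMUSG00000060519, chr1:156653617-156674356, minus strand) had 1018, 933 and 1022 counts in sgCdk10, against 1090, 1136 and 1189 in sgControl. It fell by 0.24 on the log2 scale (SE 0.04; adjusted p by edgeR = 0.000102). The groups did not overlap, and the call stood in each of the 14 alternatives, with log2 fold changes from -0.26 to -0.22.

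Several members lie beside each other on a chromosome. Tested members within 250 kb of each other form 15 pairs, in the Ifit, Ifitm, Mx, Rsad2, Parp14 to Parp9 and Trim30a groups. The log2 ratio of the counts of a pair within a library does not depend on the scaling of libraries. For Ifit3 over Ifit2 this ratio averaged -2.22 ± 0.04 in sgCdk10 and -2.97 ± 0.13 in sgControl (SD, n = 3), a difference of 0.75. For Ifitm1 over Ifitm2 it averaged -0.69 ± 0.15 in sgCdk10 and -1.26 ± 0.09 in sgControl, a difference of 0.57. For Dtx3l over Parp9 it averaged -0.28 ± 0.02 in sgCdk10 and -0.57 ± 0.12 in sgControl, a difference of 0.29. Rsad2 over Cmpk2 differed by 0.32. In these 4 pairs, and in 10 of the 15, the groups did not overlap. Each of these 10 gave p = 0.1 in a two-sided exact permutation test over the 6 libraries (0.15 after Benjamini-Hochberg adjustment over 15 pairs), and 0.1 is the smallest value that 3 against 3 libraries allow, so no pair could reach 0.05. Pairs that share a gene are not independent. In each pair the gene with the larger fold change was placed on top, which fixes the sign of the difference. The share of neighbouring pairs of other genes without overlap was not computed, so the count of 10 has no background beside it. Among single tested genes, 26.6% lay higher and 24.8% lower in sgCdk10 without overlap in CPM. The ratio of Parp14 over Dtx3l was -0.24 ± 0.07 in sgCdk10 and -0.24 ± 0.11 in sgControl.

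**Figure D4:**
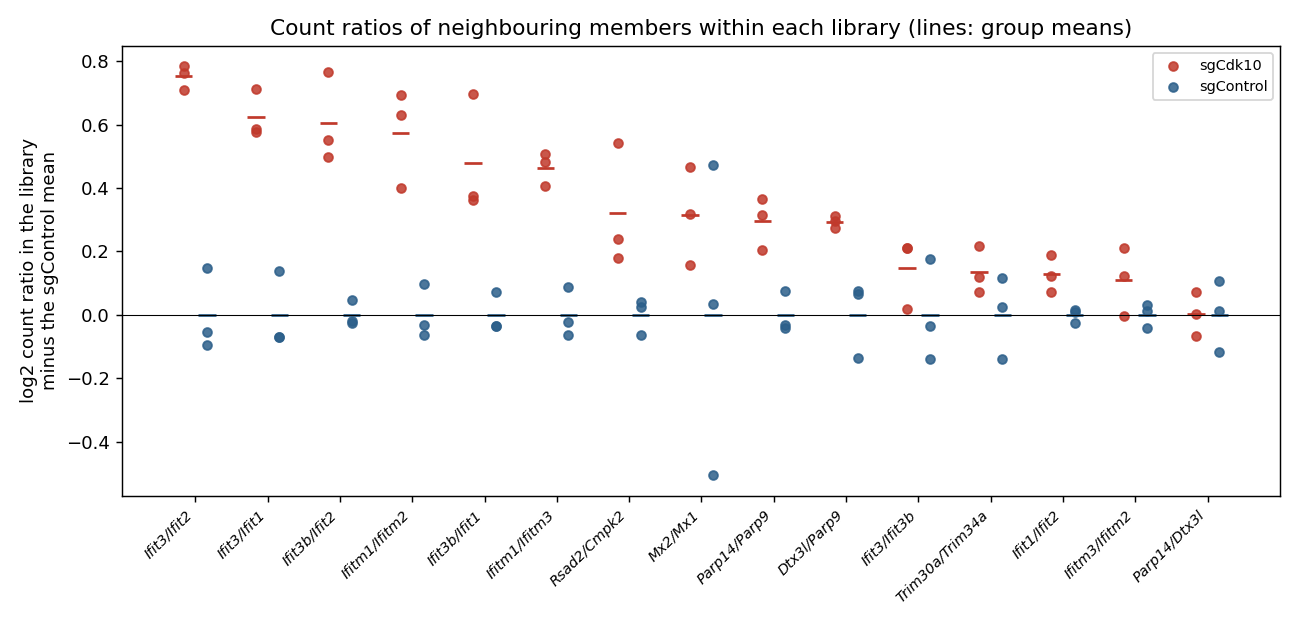
Log2 ratio of the counts of 2 neighbouring tested members within each library, minus the sgControl mean of that ratio (vertical axis). Shown are 15 pairs within 250 kb, with sgCdk10 left of sgControl in each pair and lines at the group means. In 10 pairs the groups do not overlap, and the widest gap is that of Ifit3 over Ifit2, at 0.75. The share of neighbouring pairs of other genes without overlap was not computed.

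Members with ISRE letters in the promoter window had a median change close to that of members whose windows lacked them. Of the 13 tested members with the letters 9 rose, with a median log2 fold change of 0.23 and a range from -0.01 to 0.76. Of the 20 tested members whose windows lacked them 16 rose, with a median of 0.28 and a range from 0.00 to 0.72. Ifit3 and Ddx60, whose stretches are printed above and which both hold 2 matches, had changes of 0.76 and -0.01. Ifitm1, Sp100, Znfx1 and Ube2l6 rose with no match in their windows, which says only that these letters are not in those windows. The 7 members without a window in the table had a median of 0.11. These are descriptions of small groups of genes, and no test was made between them.

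Upstream of the effectors, the interferon genes themselves were at the limit of detection. Of 10 interferon ligand genes 7 had 0 counts in all 6 libraries and none was tested. Ifnb1 had 1, 2 and 2 counts in sgCdk10 and 1, 1 and 1 in sgControl, all under 3 counts, the smallest number taken here as detection, and a difference could not be seen at this depth. Of 12 genes of receptors, kinases and ISGF3 10 were tested, 4 rose and none fell, with a median log2 fold change of 0.06. The 3 with the smallest p-values were Jak2, a kinase of the interferon-gamma receptor, at 0.42 (SE 0.04), and the interferon-gamma receptor genes Ifngr2 at 0.44 (SE 0.07) and Ifngr1 at 0.36 (SE 0.06). The ISGF3 genes Stat2, with a log2 fold change of 0.07 (adjusted p by edgeR = 0.226), and Irf9, with -0.09 (adjusted p by edgeR = 0.1), were not called. For Irf9 every sgCdk10 library lay below every sgControl library in CPM. Also not called were the type I receptor genes Ifnar1 (0.06) and Ifnar2 (0.06) and the kinase genes Jak1 (0.06) and Tyk2 (-0.05).

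Of 6 interferon regulatory factors 5 rose and none fell, with a median of 0.34 on the log2 scale. Irf7, which amplifies type I interferon production and is itself an interferon-stimulated gene, had 838, 825 and 929 counts in sgCdk10, against 671, 668 and 637 in sgControl. It rose by 0.35 (SE 0.05; adjusted p by edgeR = 1.9e-06). The Irf2 call was lost in 7 of the 14 alternatives. Irf3, which is activated by nucleic acid sensors, rose by 0.33 (SE 0.05) and Irf1 by 0.27 (SE 0.06). Irf8, with only 22 to 46 counts per library, had the largest rise of these factors, 0.80 (SE 0.20; adjusted p by edgeR = 0.00241). Of 6 negative regulators 3 rose and none fell: Socs1, a feedback inhibitor of JAK kinases, by 0.67 (SE 0.11), Socs3 by 0.27 (SE 0.07) and Pias1 by 0.15 (SE 0.05), the last which DESeq2 did not call (adjusted p = 0.0778). Of 41 interferon-stimulated genes outside the member set 39 were tested, 24 rose and none fell. Their median was 0.30 on the log2 scale, against 0.26 for the members. DESeq2 called 20 of these genes higher, and 21 to 25 were called higher with 1 library left out. The 3 with the smallest p-values were Oas2 (0.71), Trim25 (0.36) and Oasl2 (0.32). In each of these lists, as among the members, the share called higher stands beside 22.1% over all tested genes.

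The 3 libraries of a group differed little in the members. The median over the tested members of the log2 ratio to the sgControl mean was 0.25, 0.25 and 0.24 in the sgCdk10 libraries, against 0.01, -0.01 and 0.00 in the sgControl libraries. The sgControl replicate 3, which stood apart over all genes, was the highest sgControl library for 18 of 40 members (45%), against 36.9% of all tested genes, and the lowest for 12. In sgCdk10, replicate 1 was highest for 18 of 40 members, against 32.6% of all tested genes.

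**Figure D5:**
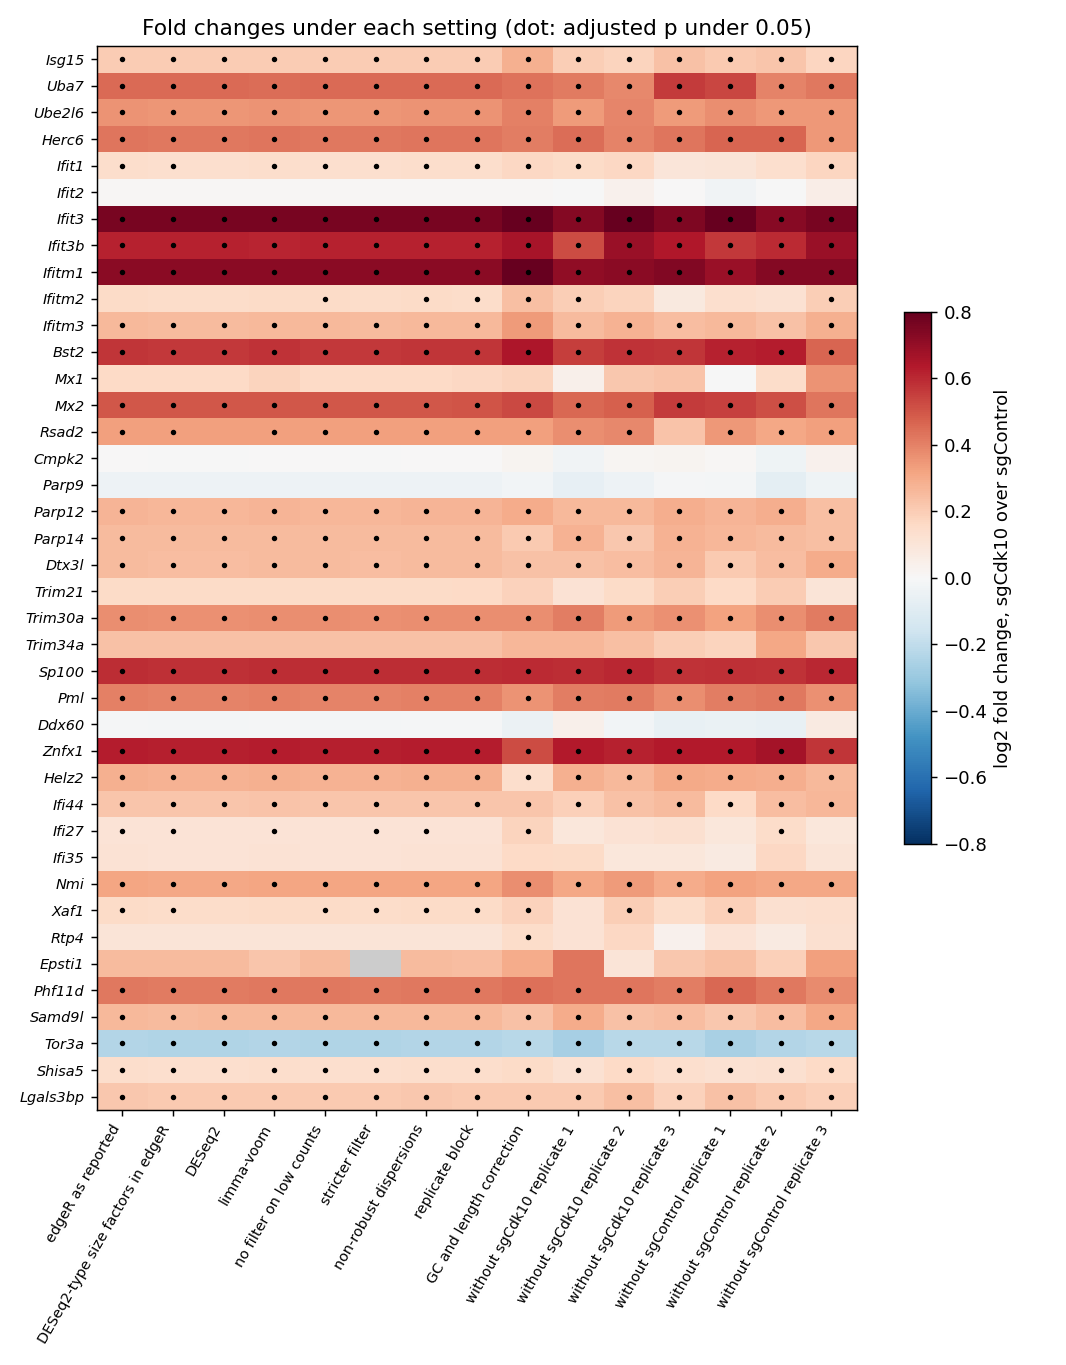
Log2 fold change of sgCdk10 over sgControl (colour) for each of the 40 tested members (rows) under the reported edgeR test and 14 alternatives (columns), with a dot where the adjusted p was under 0.05 and grey where a gene was not tested. Of the 28 members called higher, 24 carry a dot in every column, and Ifit1, Rsad2, Ifi27 and Xaf1 do not.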

How the data were processed

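Counts per gene for 6 libraries were used as the authors deposited them, without normalization. Per the submitters' processing notes, the tools were HISAT2 2.2.1, featureCounts 2.0.3 and DESeq2 1.40.2 and the build was mm10. The sources used here do not give the annotation release or the strand setting. Groups and replicate numbers came from the library titles. Symbols, coordinates and merged exon lengths were taken from GENCODE M21 (GRCm38), which named 52081 of 57010 identifiers.

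Genes were kept by filterByExpr (minimum count 10, minimum total 15), scaled by TMM and tested with edgeR 4.0.16 (quasi-likelihood, robust dispersions, group as the only term). P-values were adjusted over 13442 genes. A positive log2 fold change means higher in sgCdk10. CPM used TMM-adjusted totals, TPM the merged exon lengths. At this depth 3 counts corresponded to 0.156 to 0.171 CPM, which covers counting error only. The edgeR fit alone was tested on simulated counts, in which fewer genes changed than were called here.

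Every member is accounted for. Counts per library are given for the 2 members with the smallest p in each role group and for those whose call or sign changed under an alternative, and from each pathway list the 3 genes with the smallest p are named. The untested member has its counts given too, and other members and genes were added to complete a role. The values of 1 pathway gene are not reported here. Members, lists and rules were chosen with earlier results of these data known. Alternatives were DESeq2-type size factors, DESeq2 1.42.0, limma-voom (limma 3.58.1), no filter, non-robust dispersions, a stricter filter (1 CPM in all libraries of either group), the replicate block, a loess correction for GC content and length (span 0.5) and leaving out each library.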

Additional observations from a re-analysis of the deposited data

How the results depend on the processing

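The count of members called higher was 28 and ran from 24 to 30 over the 14 alternatives, with 24 to 27 when 1 library was left out, and Tor3a was the 1 member called lower in each. The median log2 fold change of the tested members was 0.26, and 0.24 to 0.27 with 1 library left out. Over all genes 5717 were called, 4179 with DESeq2 and 4791 to 6056 with 1 library left out. No scaling moved the median of all genes by 0.1 on the log2 scale. The sign of the log2 fold change turned in 4 members, all uncalled. Cmpk2 was at -0.000444 with DESeq2-type size factors, -0.000241 with DESeq2 and -0.000216 with the stricter filter, and ran from -0.036 to 0.032 with 1 library left out. Ifit2 ran from -0.028 to 0.056, Mx1 from -0.0033 to 0.36 and Ddx60 from -0.057 to 0.075 with 1 library left out. Of the 41 other interferon-stimulated genes, 0 were called lower, against 1 with the GC and length correction and 0 to 1 with 1 library left out. This 1 gene was Adar, named after its values were seen. The cause was not tested. The replicate block gave 5481 called genes and 28 members higher. Among the members it ended the call of Ifi27 and made that of Ifitm2, and it ended that of Irf2. Deviations from the group means correlated between libraries of the same number at 0.03, -0.06 and -0.10, so the numbers were not taken as pairs, and for some libraries another number gave the highest correlation. Depth limits Mx1, Epsti1 and Ifi44l.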
